A study of Mus musculus with 6 samples.

Results

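The CatSper channel subunits were examined across 6 mouse testis RNA-seq libraries as 10 genes taken by symbol from a table of 54532 Ensembl genes: Catsper1, Catsper2, Catsper3, Catsper4, Catsperb, Catsperd, Catsperg1, Catsperg2, Catsperz and Efcab9. All 10 were found once each, and all 10 passed the low-count filter. The groups were 3 libraries from testes of the genotype 1700052I22Rik-KO (KO) and 3 from WT testes, each made from whole testis. 1700052I22Rik is a long non-coding RNA gene, and the study asks what it does in spermatogenesis. The sources used here do not state the age or strain of the mice, how the allele was made, or whether each library came from its own animal. The p-values therefore reflect only the spread among these libraries, which may be technical.

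CatSper is the calcium channel of the sperm tail. It lies in the membrane of the principal piece, opens when the sperm interior becomes alkaline, and is required for the hyperactivated beat with which sperm reach and penetrate the egg. The proteins of Catsper1 to Catsper4 together form the pore, those of Catsperb, Catsperg1, Catsperg2 and Catsperd are transmembrane auxiliary subunits with large extracellular domains, and those of Catsperz and Efcab9 form a cytoplasmic pair that tunes the gate to pH and calcium. The transcripts are made in germ cells, and the protein complex is assembled in the spermatid tail.

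Catsperg1 and Catsperg2 are neighbouring paralogs, and the sequences below are shown because they set how well reads of these genes can be told apart. The longest annotated coding sequences were 96.4% identical, with 123 differing bases among 3435 aligned bases and an identical run of 341 bases. Of the 45 pairs among the 10 genes, this was the 1 pair whose annotated transcripts shared any window of 50 bases. Of the distinct windows of 100 bases in Catsperg1 transcripts, 23.7% were also found in Catsperg2 transcripts. The first 60 coding bases differed at 1 base, and the 60 bases with the most differences differed at 13. Capitals mark the bases that differ between the genes. All are written 5′ to 3′ on the minus strand of mm10 and come from GENCODE M21 transcripts, the first pair from chr7:29210855-29210914 and chr7:29725410-29725469 and the second pair from chr7:29195460-29195519 and chr7:29710056-29710115.
Catsperg1, first coding bases: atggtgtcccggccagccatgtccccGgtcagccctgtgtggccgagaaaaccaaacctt
Catsperg2, first coding bases: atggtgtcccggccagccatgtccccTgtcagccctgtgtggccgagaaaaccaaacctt
Catsperg1, most different stretch: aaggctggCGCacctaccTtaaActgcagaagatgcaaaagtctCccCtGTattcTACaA
Catsperg2, most different stretch: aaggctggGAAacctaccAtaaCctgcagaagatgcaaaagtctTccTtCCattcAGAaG
The sources used here do not say how reads that fit both genes were counted, so the values of these paralogs are uncertain singly.

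Depth was even, at 17635045 to 17957707 counts in KO libraries and 17794450 to 18117593 in WT libraries, and a CatSper subunit had 1046 to 6979 counts in a library. The targeted transcript had 0 counts in each KO library, against 185, 175 and 218 in WT 1 to WT 3, which is at least 189-fold lower in KO (a bound from 3 counts over the KO group that covers counting error only). WT 1 and KO 2 stood apart from the other libraries on the leading principal component (24.5 and 33.2, against -19.6 to -7.86), which held 26.1% of the variance. Defining markers of every germ cell stage examined were present. Levels are given as CPM, counts scaled to library size with TMM factors. Summed levels were 1413 to 1472 CPM in KO and 1301 to 1399 CPM in WT for 7 round spermatid genes. They were 16636 to 19798 CPM in KO and 17129.5 to 19256 CPM in WT for 8 elongating spermatid genes. They were 1417 to 1510 CPM in KO and 1342 to 1499 CPM in WT for 8 spermatocyte genes, and 72.7 to 73.9 CPM in KO and 74.7 to 79.1 CPM in WT for 6 spermatogonial genes. Somatic sums were 405 to 431 CPM in KO and 434 to 503 CPM in WT for 6 Sertoli genes. They were 233 to 630 CPM in KO and 212 to 830 CPM in WT for 6 Leydig genes, and 42.9 to 54.3 CPM in KO and 49.4 to 74.0 CPM in WT for 6 macrophage genes. The lowest Leydig sums were those of WT 1 and KO 2 (212 and 233 CPM), against 425 to 830 CPM in the other libraries. Whether this bears on their place on the principal component was not tested. The 6 epididymis genes summed to 4.72 to 4.87 CPM in KO and 4.56 to 5.28 CPM in WT, with Lcn5 at 0. None of these markers was called, and of the epididymis genes 1 was tested. Log2 fold change was above 0 for 6 of 7 round spermatid, 4 of 8 elongating spermatid, 5 of 8 spermatocyte and 2 of 6 spermatogonial genes. It was above 0 for 2 of 6 Sertoli, 0 of 6 Leydig and 0 of 6 macrophage genes, against 49.3% of all tested genes. The bearing of these markers on the subunits was not tested.

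The transcripts of the sperm calcium channel were abundant in both genotypes, and no subunit passed the test of KO against WT. Of the 10 genes, 0 were called higher and 0 lower by edgeR's quasi-likelihood test at an adjusted p under 0.05, where 0.00518% of the 19320 tested genes were called, the 1 called gene being 1700052I22Rik. Adjusted p for the subunits lay between 0.965 and 0.995. At an unadjusted p under 0.05 there was 1 subunit, Catsper1, against 4.63% of all tested genes, and DESeq2 also called 0 subunits. The median log2 fold change of KO over WT was 0.04 over the 10 genes and -0.0025 over all tested genes. It was above 0 for 8 of the 10 genes, against 49.3% of all tested genes. The 95% intervals of the 10 fold changes ran from 0.848 to 1.29 at their outermost, so all 10 lay within 1.5-fold in either direction. In whole testis, fewer cells of a type and less RNA per cell cannot be told apart.

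**Figure D1:**
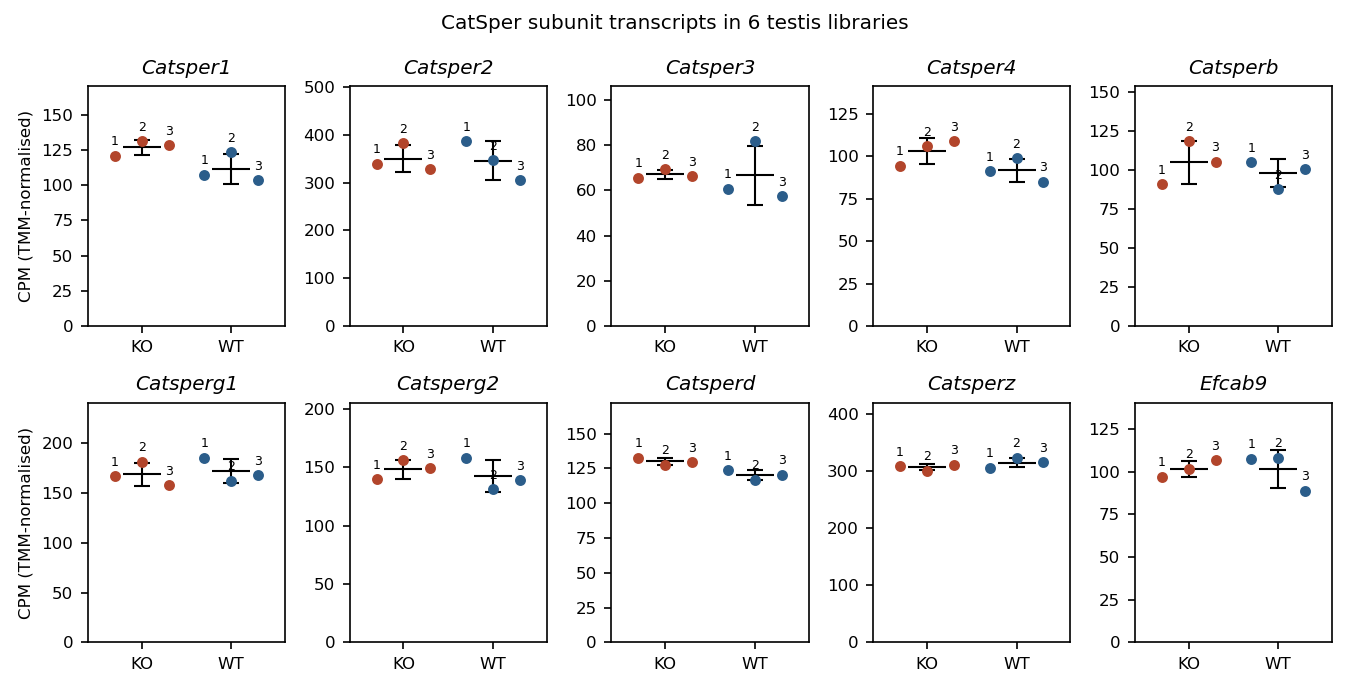
TMM-normalised CPM (vertical axes from 0, a scale for each gene) of the 10 CatSper genes in KO (left) and WT (right). Points are libraries with their replicate number, bars are the mean and SD of 3 libraries, and the groups overlap for 9 of the 10 genes, the exception being Catsperd.

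Among the pore-forming subunits, Catsper1 had the smallest p. Catsper1 encodes the subunit with the histidine-rich amino-terminal domain that is linked to pH sensing, and lies at chr19:5335741-5344153 on the plus strand of mm10, as do all coordinates here. It had 121, 131 and 129 CPM in KO 1 to KO 3, against 108, 123 and 104 CPM in WT 1 to WT 3. KO 2 and KO 3 were above all WT libraries, and KO 1 fell below WT 2, so the groups overlapped. Its log2 fold change was 0.19 (95% interval 0.0046 to 0.37, edgeR adjusted p = 0.965), and a two-sided exact permutation test gave p = 0.2, where 3 against 3 cannot go below 0.1. The unadjusted p of Catsper1 was under 0.05 without KO 1 or WT 2 and over it without any of the other 4 libraries. Its log2 fold change lay between 0.14 and 0.26 when each library was left out in turn, with an adjusted p of at least 0.741 in all 15 alternatives.

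Catsper2, whose human counterpart is deleted in a syndrome of deafness and male infertility, lies at chr2:121392631-121413792 on the minus strand. It had 340, 383 and 328 CPM in KO 1 to KO 3, against 387, 347 and 305 CPM in WT 1 to WT 3. The highest and the lowest library were both WT (log2 fold change 0.02, 95% interval -0.17 to 0.21, edgeR adjusted p = 0.992). Its exons share 18 bases with those of Pdia3 on the other strand, and the sources used here do not state the strand setting of the counting.

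Catsper3 and Catsper4 encode the remaining pore subunits, both needed for sperm hyperactivation in mice. Catsper3 (chr13:55784568-55808998, plus strand) had 65.7, 69.3 and 66.3 CPM in KO 1 to KO 3, against 60.8, 81.7 and 57.5 CPM in WT 1 to WT 3. WT 2 was the highest library and the other WT libraries were the lowest, so the spread within WT exceeded the difference between the genotypes (log2 fold change 0.01, 95% interval -0.24 to 0.26, edgeR adjusted p = 0.995). Without WT 2 the log2 fold change of Catsper3 was 0.18 and without WT 3 it was -0.09, neither called. Catsper4 (chr4:134211970-134227383, minus strand) had 94.3, 106 and 109 CPM in KO 1 to KO 3, against 91.2, 98.9 and 85.0 CPM in WT 1 to WT 3. Its groups overlapped through KO 1 and WT 2 (log2 fold change 0.17, 95% interval -0.02 to 0.36, edgeR adjusted p = 0.965; exact permutation p = 0.2, two-sided).

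**Figure D2:**
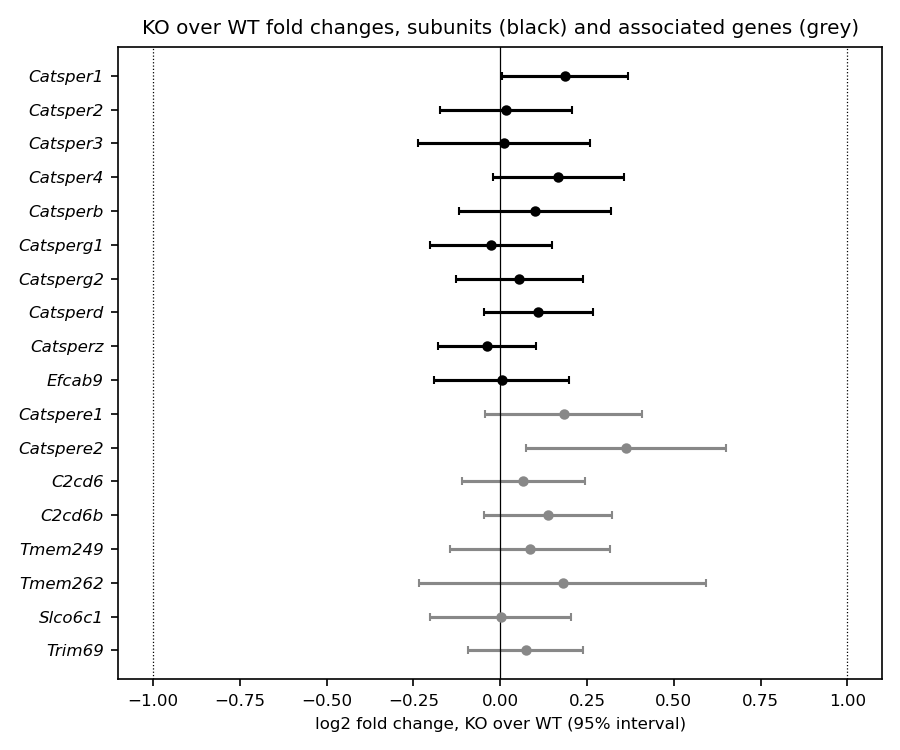
Log2 fold change of KO over WT with 95% intervals from edgeR for the 10 CatSper genes (black) and 8 CatSper-associated genes (grey), with dotted lines at 2-fold. The interval of Catsper1 starts at 0.0046 and that of Catspere2 at 0.07, and those of the other 16 genes include 0.

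The auxiliary subunits with extracellular domains were also close to their WT levels. Catsperb, which encodes the beta subunit, lies at chr12:101404653-101626009 on the plus strand, on the chromosome of 1700052I22Rik and 20480204 bases from it. It had 90.7, 118 and 105 CPM in KO 1 to KO 3, against 105, 87.7 and 100.3 CPM in WT 1 to WT 3. The highest library was KO 2 and the lowest WT 2, and the groups overlapped (log2 fold change 0.10, 95% interval -0.12 to 0.32, edgeR adjusted p = 0.967). Single libraries moved the log2 fold change of Catsperb to 0.0079 without KO 2, 0.03 without WT 2, 0.15 without WT 1 and 0.19 without KO 1, none called. Catsperd, which encodes the delta subunit and is required for a stable channel in mouse sperm, lies at chr17:56628143-56664456 on the plus strand. Catsperd had 133, 128 and 129.5 CPM in KO 1 to KO 3, against 124, 117 and 121 CPM in WT 1 to WT 3. Every KO library was above every WT library, and it was the 1 subunit of 10 whose groups did not overlap, against 9.32% of all tested genes in either direction and 4.69% with KO higher. The difference was small (log2 fold change 0.11, 95% interval -0.05 to 0.27) and was not called (edgeR adjusted p = 0.965; exact permutation p = 0.1, two-sided, the smallest that 3 against 3 allows).

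Both gamma subunit genes gave values that did not pass the test. Catsperg1 (chr7:29181321-29214035, minus strand) had 167, 181 and 158 CPM in KO 1 to KO 3, against 185, 162 and 168 CPM in WT 1 to WT 3 (log2 fold change -0.03, 95% interval -0.20 to 0.15, edgeR adjusted p = 0.988). Catsperg2 (chr7:29697219-29727032, minus strand) had 139.7, 156 and 149 CPM in KO 1 to KO 3, against 158, 131 and 139 CPM in WT 1 to WT 3 (log2 fold change 0.06, 95% interval -0.13 to 0.24, edgeR adjusted p = 0.976). WT 1 and KO 2 were the highest libraries for both paralogs, so the order of the libraries did not follow genotype. Per kilobase, the ratio of Catsperg1 to Catsperg2 was 1.14 ± 0.0724 in KO and 1.204 ± 0.0326 in WT (SD, n = 3), and the groups overlapped. The 96.4% identity of the coding sequences limits how this ratio can be read.

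The cytoplasmic pair differed in how steady it was. Catsperz (chr19:6922426-6925380, minus strand), the zeta subunit that keeps the channel in continuous rows along the tail, had 309, 301 and 311 CPM in KO 1 to KO 3, against 306, 323 and 316 CPM in WT 1 to WT 3. It had the smallest within-group coefficient of variation of the 10 genes, 2.32%, hardly below the 2.37% of Catsperd. The log2 fold change of Catsperz was -0.04 (95% interval -0.18 to 0.10, edgeR adjusted p = 0.977). Efcab9 (chr11:32522751-32532081, minus strand), which encodes the EF-hand partner of the zeta subunit, had 97.1, 102 and 107 CPM in KO 1 to KO 3, against 108, 108 and 88.8 CPM in WT 1 to WT 3. WT 3 was the lowest library and the other WT libraries the highest (log2 fold change 0.0045, 95% interval -0.19 to 0.20, edgeR adjusted p = 0.995). The ratio of Efcab9 to Catsperz per kilobase was 0.248 ± 0.0111 in KO and 0.241 ± 0.0274 in WT (SD, n = 3), with overlapping groups.

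To compare genes with each other, counts were divided by the deposited gene length and scaled to the same total in every library (TPM). The zeta subunit was the most abundant per length, and the beta and gamma subunits the least. Catsperz had 1029 ± 22.2 TPM in KO and 1069 ± 33.8 TPM in WT (SD, n = 3), rank 88 among the 19320 tested genes. Efcab9 followed with 256 ± 15.7 TPM in KO and 258 ± 28.0 TPM in WT, and Catsper2 with 249 ± 29.9 TPM in KO and 248 ± 28.6 TPM in WT. Efcab9 exceeded Catsper2 in 4 of 6 libraries, so these neighbours did not differ beyond their spread.

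The other pore subunits came next in level. Catsper1 had 162 ± 12.2 TPM in KO and 144 ± 13.9 TPM in WT. Catsper3 had 129 ± 8.68 TPM in KO and 129.8 ± 26.1 TPM in WT, and Catsper4 had 129 ± 12.3 TPM in KO and 116 ± 9.09 TPM in WT. Catsper1 exceeded Catsper3 in 5 of 6 libraries, and Catsper3 exceeded Catsper4 in 5 of 6, so their order was not the same in every library.

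The transmembrane auxiliary subunits were lower per deposited length. Catsperd had 94.8 ± 2.29 TPM in KO and 88.8 ± 2.12 TPM in WT. Catsperg1 had 62.9 ± 6.68 TPM in KO and 64.6 ± 4.23 TPM in WT, and Catsperg2 had 55.4 ± 5.003 TPM in KO and 53.8 ± 4.98 TPM in WT. Catsperb had 49.8 ± 8.34 TPM in KO and 46.8 ± 4.08 TPM in WT. From Catsper4 downwards, each of these genes was below the one before it in 6 of 6 libraries.

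The balance between subunits was described as each gene's share of their summed level per kilobase. The summed level was 2117, 2341 and 2191 TPM in KO 1 to KO 3, against 2221, 2311 and 2120 TPM in WT 1 to WT 3, so the WT values lay within the range of the KO values. Catsperz made up 46.5 ± 1.37% of the sum in KO and 48.2 ± 2.05% in WT (SD, n = 3). Catsper2 made up 11.2 ± 0.842% in KO and 11.2 ± 1.097% in WT, and Efcab9 11.5 ± 0.407% in KO and 11.6 ± 0.854% in WT. Catsper1 was the 1 gene whose share did not overlap between the groups, at 7.09%, 7.45% and 7.34% in KO 1 to KO 3, against 6.20%, 6.90% and 6.29% in WT 1 to WT 3. The shares of the other 9 genes overlapped. Among all tested genes 9.32% had CPM that did not overlap between the groups, which is close to 1 of 10. CPM and shares are unlike measures, and no background was computed for shares, so 9.32% is a rough guide only. The CPM of Catsper1 overlapped between the groups.

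The pore is built from all of Catsper1 to Catsper4 together, and their transcripts were uneven. Deposited lengths were used here, and each gene was set against the mean of Catsper1 to Catsper4 per kilobase. Catsper2 stood at 1.49 ± 0.0688 in KO and 1.56 ± 0.137 in WT (SD, n = 3). Catsper1 stood at 0.963, 0.949 and 0.993 in KO 1 to KO 3, against 0.853, 0.918 and 0.934 in WT 1 to WT 3, with no overlap. Catsper3 stood at 0.775 ± 0.0165 in KO and 0.811 ± 0.0986 in WT, and Catsper4 at 0.770 ± 0.0464 in KO and 0.727 ± 0.0211 in WT, both with overlap. These ratios were described without a test or a background over all genes, and that of Catsper1 rests on the same counts as its share.

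The length given to a gene changed the order of the levels. For 8 of the 10 genes the deposited length equals the union of exons of all isoforms in GENCODE M21, such as 7044 bases for Catsperg1 and 3695 for Catsper2, whose longest protein-coding transcripts have 3670 and 2247 bases. Catsper1 and Catsperz were deposited with 2061 and 781 bases, against exon unions of 2188 and 1262 bases, and a longer length would lower the level and share of Catsperz. With transcript lengths, Catsperz held 38.8% of the sum over the 6 libraries in place of 47.4%, and Catsper2 15.5% in place of 11.2%. Catsper2 was then above Efcab9 in 6 of 6 libraries, and Catsper4 above Catsper1 in 5 of 6. Catsper3 was then above Catsperd in 2 of 6 libraries, with a mean ratio of 1.03, so the lowest pore subunit and the highest transmembrane auxiliary subunit were not separated. Relative to the mean of Catsper1 to Catsper4, Catsper2 stood at 1.92 in KO and 1.999 in WT with transcript lengths. With coding lengths Catsper2 stood at 2.01 in KO and 2.09 in WT. Catsper1 stood at 0.717 in KO and 0.663 in WT with transcript lengths, and at 0.626 and 0.578 with coding lengths. With both of these lengths the group means of Catsper1 were below those of Catsper4. Catsperz was the highest, and Catsperb the lowest, under each of the 3 length choices. Lengths cancel in the comparison of genotypes for a single gene. The Catsper1 share did not overlap between the groups under any of the 3 choices. These choices reweight the same counts, so this is not separate support for a difference.

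**Figure D3:**
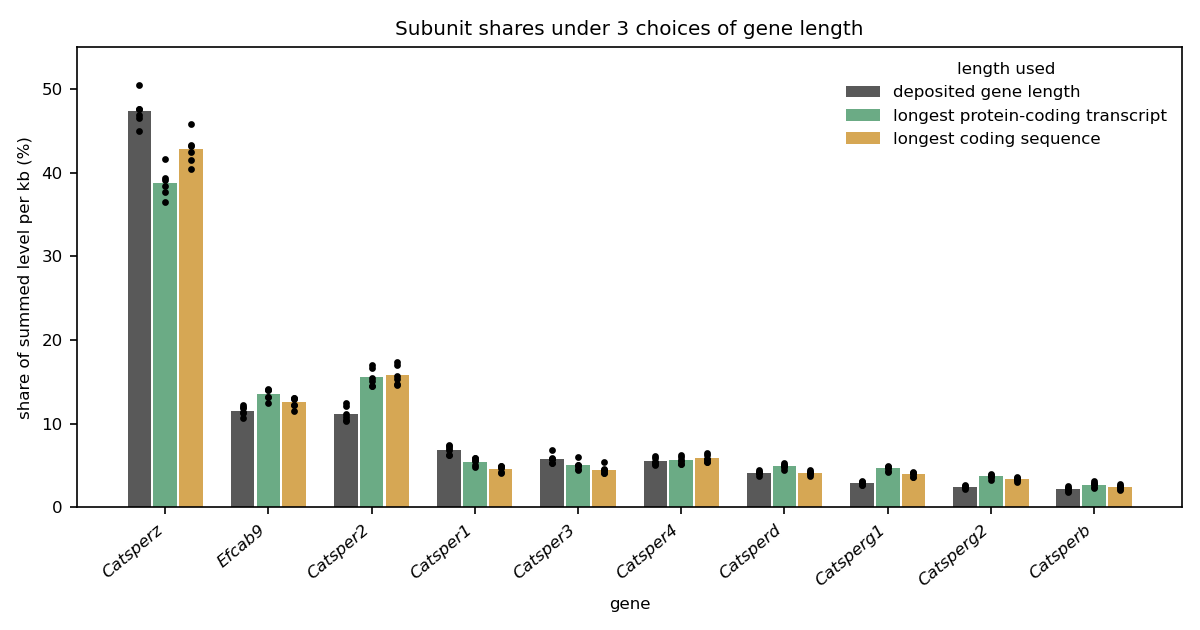
Share of each CatSper gene in the summed level per kilobase (vertical axis, percent) for 3 choices of gene length. Bars are means over the 6 libraries and points are single libraries; Catsperz is highest under each choice, and Catsper2 stands at 11.2% with deposited lengths and 15.5% with transcript lengths.

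The libraries differed in how many subunits lay above or below their own means. Taking log2 CPM as a deviation from each gene's mean over the 6 libraries, KO 2 was above the mean for 9 of the 10 genes, all but Catsperz, against 50.7% of all tested genes. KO 1 was above the mean for 2 genes, KO 3 for 7, WT 1 for 5, WT 2 for 5 and WT 3 for 1, which was Catsperz. WT 3 was the lowest library for 5 of the 10 genes, against 19.1% of all tested genes. These were the pore subunits Catsper1 to Catsper4 and Efcab9, at -0.21 to -0.18. WT 1 and KO 2 were the highest pair for Catsper2, Catsperg1 and Catsperg2, which is 3 of 10 genes against 12.5% of all tested genes. Reads may be shared between Catsperg1 and Catsperg2, so their counts may not be separate here. The marker sums of germ cell stages did not share 1 order. The round spermatid and spermatocyte sums were lowest in WT 3 (1301 and 1342 CPM), whereas the elongating spermatid sum was lowest in KO 2 (16636 CPM) and in WT 3 (19256 CPM) was second to that in KO 1. Their part in the subunits' values was not tested. These library patterns were noticed in the values and are given as a description.

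**Figure D4:**
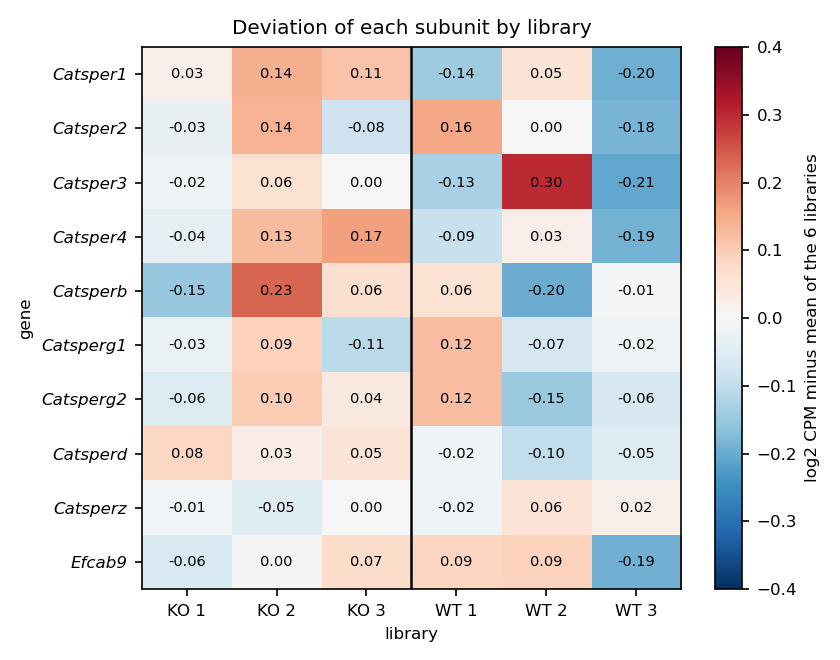
Deviation of log2 CPM from the mean of the 6 libraries for each CatSper gene (rows) in each library (columns, KO left of the line). Red is above and blue below the gene's mean; KO 2 is above it for 9 of 10 genes, and WT 3 is lowest for Catsper1 to Catsper4 and Efcab9.

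The mean profile of the 10 genes over the 6 libraries was flat, at -0.03, 0.09 and 0.03 in KO 1 to KO 3 and 0.02, 0.0015 and -0.11 in WT 1 to WT 3 (log2). Other protein-coding genes averaging 5 CPM or more numbered 11030, and those closest to this profile by root mean square difference over the 6 libraries included Strbp (0.0152), Phf10 (0.0159), Tiprl (0.0161) and Cct4 (0.0162). The median over all candidates was 0.129, and the subunits themselves lay 0.0707 to 0.142 from their own mean. The 4 named genes were picked for being among the smallest of 11030 distances, whereas the subunits were not picked by distance. Their distances therefore cannot be compared with those of the subunits. None of these 4 was called (edgeR adjusted p from 0.967 to 0.977).

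Genes known to associate with the channel complex or its transport were measured beside it. Of 8 such genes 0 were called in either direction, against 0.00518% of all tested genes. Their median log2 fold change was 0.11, against -0.0025 over all tested genes. All 8 were above 0, against 49.3% of all tested genes. Catspere2, an epsilon subunit gene, had the lowest p, with 26.1, 28.0 and 27.6 CPM in KO 1 to KO 3, against 25.1, 16.6 and 21.8 CPM in WT 1 to WT 3. Every KO library was above every WT library, with a log2 fold change of 0.36 (95% interval 0.07 to 0.65) that was not called (edgeR adjusted p = 0.965; exact permutation p = 0.1, two-sided). It was the 1 gene of these 8 whose groups did not overlap. Among all tested genes the groups did not overlap for 9.32% in either direction and for 4.69% with KO higher. Without WT 2 the log2 fold change of Catspere2 was 0.21, and without WT 1 it was 0.50, neither called. The adjusted p was at least 0.369 in every alternative. Catspere1, its paralog and annotated as a pseudogene in the deposited table, had 50.1, 47.9 and 56.0 CPM in KO 1 to KO 3, against 51.3, 39.8 and 44.5 CPM in WT 1 to WT 3 (log2 fold change 0.18, and 0.10 without WT 2, 0.12 without KO 3 or 0.28 without WT 1). These paralogs share 11.5% of the windows of 100 bases in Catspere1 and 6.13% of those in Catspere2, so their counts are uncertain singly.

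The remaining associated genes had intervals that include 0. C2cd6, whose C2-domain protein carries the complex into the tail, had 219 ± 15.2 CPM in KO and 209 ± 18.1 CPM in WT (SD, n = 3, log2 fold change 0.07). C2cd6b had 157 ± 9.56 CPM in KO and 143 ± 13.6 CPM in WT (log2 fold change 0.14). It is listed apart in the deposited table, annotated as a long intergenic non-coding RNA, and is joined to C2cd6 in RefSeq. Slco6c1, an organic anion transporter found with the channel in mouse sperm, had 192 ± 18.02 CPM in KO and 192 ± 22.5 CPM in WT. Trim69 had 151 ± 4.86 CPM in KO and 144 ± 9.59 CPM in WT. Tmem249 and Tmem262, small membrane proteins of the complex, had log2 fold changes of 0.09 and 0.18. Tmem262 was scarce, at 6.54 ± 1.44 CPM in KO and 5.77 ± 0.775 CPM in WT, and its exons share 27 bases with those of Zfpl1 on the other strand. Its log2 fold change was 0.0078 without KO 1 and 0.33 without KO 2.

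Of 17 genes listed for sperm ion, pH and cAMP control, 16 were tested and 0 were called, against 0.00518% of all tested genes. Whether they act with the channel in these testes was not tested. The untested gene, Slc26a3, had 1 to 6 counts in a library. The median log2 fold change was 0.12, against -0.0025 over all tested genes. It was above 0 for 13 of the 16 genes, against 49.3% of all tested genes. These include Hvcn1, which had only 1 to 13 counts in a library (log2 fold change 0.15, 95% interval -1.33 to 1.64). The CPM of the groups did not overlap for 3 of the 16, against 9.32% of all tested genes. These were Kcnu1, with KO higher, and Calm3 and Slc8a1, with KO lower. The most abundant per length included Calm2, Calm3 and Cabyr, a calcium-binding protein gene of the fibrous sheath. Calm2 had 1269 ± 78.3 TPM in KO and 1180 ± 81.5 TPM in WT (SD, n = 3). Calm3 had 479, 427 and 455 CPM in KO 1 to KO 3, against 489, 525 and 509 CPM in WT 1 to WT 3, with every KO library below every WT library. Its log2 fold change of -0.16 (95% interval -0.31 to -0.02) was not called (edgeR adjusted p = 0.965). The log2 fold change was 0.14 for Cabyr and 0.12 for Calm2, neither called. Slc8a1, a sodium-calcium exchanger gene, was scarce, at 0.862 ± 0.286 CPM in KO and 1.47 ± 0.170 CPM in WT (log2 fold change -0.77, edgeR adjusted p = 0.965). At an unadjusted p under 0.05 there were 2 of these genes, Calm3 and Slc8a1, against 4.63% of all tested genes.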

How the data were processed

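TRIzol extraction and a VAHTS mRNA-seq v2 library kit were used, per the labels' protocols. HISAT2 2.0.0 and the mm10 build are named, per the submitters' processing notes. The sources used here do not state the counting tool, annotation release or strand. The table deposited by the authors holds raw counts and a length for each Ensembl gene, per the file headers. Of 54409 identifiers found in GENCODE M21, 98.0% had a length equal to the union of exons there. Catsperz and Catsper1 did not (781 and 2061 bases deposited, 1262 and 2188 in GENCODE M21).

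KO was compared with WT in edgeR 4.0.16 (glmQLFit, glmQLFTest; R 4.3.3) on the counts of all 6 libraries, with TMM factors, no covariate, filterByExpr (minimum count 10) and Benjamini-Hochberg adjustment over all 19320 tested genes at 0.05. The test was checked on simulated counts with planted changes of at least 2-fold. The subunits' differences were smaller, so that check does not show what the test can detect there. CPM and TPM were computed from the counts, and errors are SDs over 3 libraries. Alternatives were DESeq2 1.42.0, limma-voom (limma 3.58.1), other scalings and filters, the replicate number as a block, libraries left out, and other lengths, which were added after seeing the data. Every pair of libraries differed by more than sampling noise (chi-square per degree of freedom at least 4.35). The members and lists were chosen with earlier results of these data known. Every CatSper gene is named, and of the ion, pH and cAMP genes the 4 with the highest mean TPM and those with an unadjusted p under 0.05. The 5 genes closest to the mean profile of the subunits were also chosen. Of the genes these rules chose, 2 are not reported here. No protein sequence table was used here.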

Additional observations from a re-analysis of the deposited data

How the results depend on the processing

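In edgeR, no CatSper gene was called with other scaling, other filters, the replicate number as a block, or libraries left out, nor in DESeq2 or limma-voom. The labels name no pairing of KO and WT libraries with the same number. Correlations of deviations were -0.15, -0.01 and 0.10 for equal numbers, within the -0.16 to 0.16 seen for unequal numbers. With so few libraries they cannot exclude a pairing. With the replicate block the count of called genes was 1 and the median log2 fold change of the subunits 0.04. Over all genes the count was 50 with no low-count filter, 2 in DESeq2, 9 without WT 1 and KO 2 together, and 1 to 3 with each library left out. The median log2 fold change of the subunits ran from 0.00046 without WT 3 to 0.12 without WT 1. With library size alone the log2 fold changes of Catsper3, Efcab9 and Slco6c1 were -0.0032, -0.0077 and -0.010. Without WT 1 and KO 2 that of Catsper3 was -0.071 and that of Hvcn1, under 1 CPM, -0.47; Hvcn1 was -0.13 in limma-voom. With each library left out the values that changed sign ran from -0.066 to 0.10 for Catsper2, -0.086 to 0.18 for Catsper3, -0.076 to 0.031 for Catsperg1, -0.0032 to 0.13 for Catsperg2, -0.083 to 0.052 for Efcab9, -0.080 to 0.090 for Slco6c1, -0.0056 to 0.21 for Slc9c1, -0.19 to 0.95 for Hvcn1, -0.0044 to 0.072 for Atp2b4 and -0.047 to 0.11 for Itpr3; the cause was not tested. Shares over the 6 libraries moved with the length. With the longest protein-coding transcript they were 5.47% for Catsper1, 15.5% for Catsper2, 5.04% for Catsper3, 2.73% for Catsperb, 4.66% for Catsperg1, 3.69% for Catsperg2, 4.92% for Catsperd, 38.8% for Catsperz and 13.5% for Efcab9. With coding length they were 4.63%, 15.8%, 4.51%, 2.43%, 3.95% and 3.39% for Catsper1, Catsper2, Catsper3, Catsperb, Catsperg1 and Catsperg2, and 42.8% and 12.5% for Catsperz and Efcab9. Without Catsperg1 and Catsperg2 the shares of Catsperd, Catsperz and Efcab9 were 4.38%, 50.03% and 12.2%, by construction. The planned length from a RefSeq protein table was not run.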
